A study of Mus musculus with 12 samples.

Results

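The genes described here are 41 genes of blood vessels: 31 of the endothelial cells that line them and 10 of the mural cells, the pericytes and smooth muscle cells that wrap them. They were listed by symbol for what they do, but with earlier results of these data known. Shares of members called therefore describe this list and do not test it. All 41 were found among the 57010 genes of the deposited table. Of these, 40 had enough counts to be tested, among 19166 tested genes in all, and Sele was left out by the filter on low counts. RNA was sequenced from bulk pieces of mouse cerebellum, which the series title places in crus 1, a hemispheric lobule of the cerebellar cortex.

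The 12 libraries formed 3 groups of 4. The treated group came from mice whose Fmr1 gene, the gene silenced in fragile X syndrome, is knocked out, and which had received poly(I:C), an artificial double-stranded RNA used in place of a virus, by injection into the peritoneum. The saline knockout group had the same genotype and had received saline; its titles use the word sham. The FVB group consisted of mice of the FVB background strain, also labelled as given saline. The sources used here give no age, sex, dose or time between injection and dissection. FVB mice given poly(I:C) are not among these libraries, so whether the response depends on Fmr1 was not tested. The labels name separate samples but not the animals, so p-values reflect only how these samples spread, which may be technical.

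Brain endothelial cells are joined by tight and adherens junctions and form the blood-brain barrier together with pericytes and astrocyte endfeet. In the resting brain they carry few leukocyte adhesion molecules, while inflammatory cytokines make them display selectins, ICAM-1 and VCAM-1, to which leukocytes attach. The angiopoietins act on the receptor TIE2: angiopoietin-1 keeps vessels quiescent, and angiopoietin-2, released by the endothelium itself, often opposes it.

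The libraries held between 35155420 and 56390207 counts assigned to genes. Fmr1 lay between 33.9 and 36.0 CPM (the counts of a gene per unit of library size, scaled by the trimmed mean of M values) in the treated knockout libraries and between 27.9 and 36.7 CPM in the saline knockout libraries, against 85.5 to 108 CPM in FVB libraries, so no knockout library reached the FVB level. The 3 libraries treated knockout 2 and 3 and saline knockout 2 had between 2167 and 4156 CPM of Ttr, the most abundant mRNA of the choroid plexus, while the other 9 had 1.63 to 65.3 CPM. These 3 libraries are set apart below, and the called members that lose their call without them are named as such. Leaving them out also leaves only 2 treated and 3 saline knockout libraries.

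Markers of cerebellar neurons summed to 5273 to 5765 CPM in treated knockout, 5371 to 6165 CPM in saline knockout and 5320 to 6018 CPM in FVB libraries, and none of the 8 was called in any comparison by edgeR or DESeq2 (at most 1 at an unadjusted p under 0.05). The endothelial markers Pecam1, Cdh5, Cldn5 and Esam, themselves members, were counted in every library. In bulk tissue this does not show which cells made the other members. Per kilobase of exon, the highest of the 41 genes in FVB libraries were Vtn, Itm2a, Ly6e and Ly6c1, in that order. In saline knockout libraries Itm2a, Vtn and Ly6e led, with means of 47.1 ± 3.57, 46.0 ± 2.09 and 29.3 ± 2.38 CPM per kilobase (SD, n = 4), so that Itm2a and Vtn differed by less than their SDs. In treated knockout libraries Ly6a led at 68.0 ± 14.3 CPM per kilobase and Ly6c1 next at 58.6 ± 6.78 CPM per kilobase, which also overlap within their SD, and Itm2a ranked 5 at 22.8 ± 6.14 CPM per kilobase. Ly6a ranked 8 in saline knockout and 7 in FVB libraries.

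**Figure D1:**
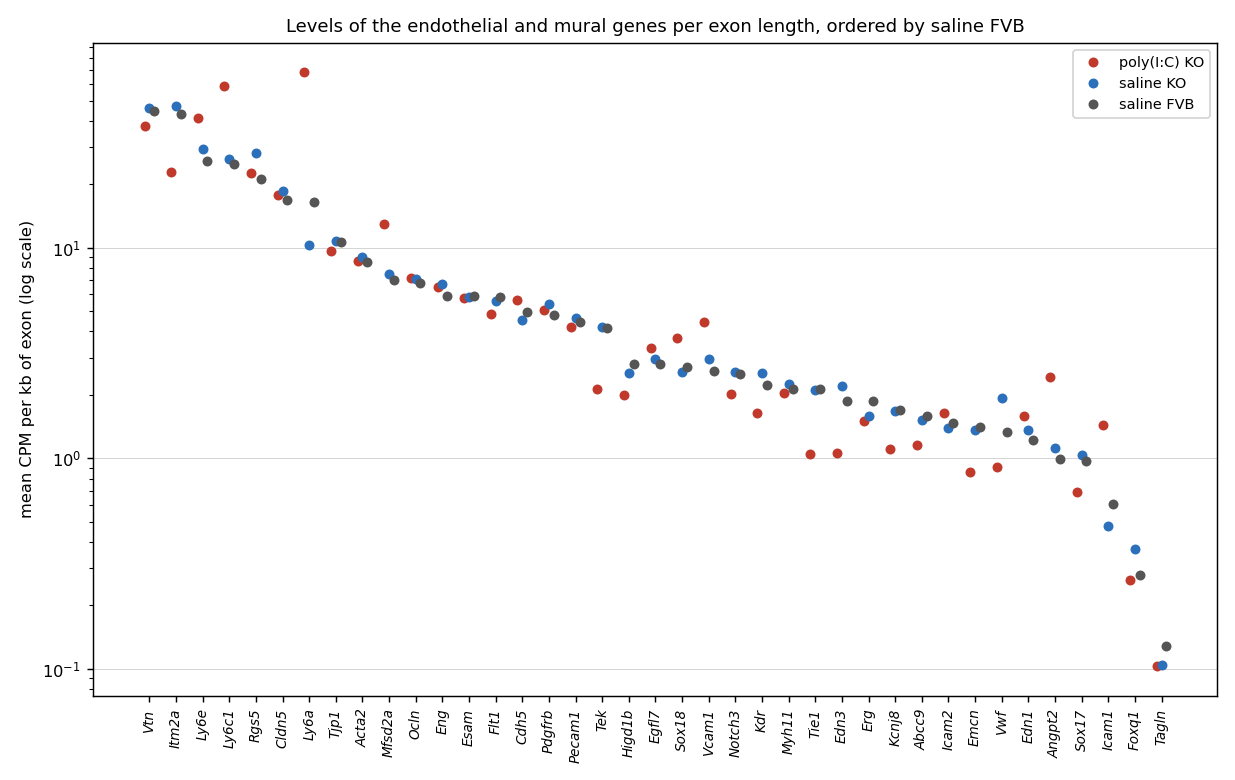
Mean level of 39 of the 41 genes in CPM per kilobase of exon (log axis), as 1 point for each of poly(I:C)-treated knockout, saline knockout and FVB libraries (n = 4 each), ordered by the FVB level; Sele and Selp, near 0 in FVB, are not drawn. Ly6a, at 68.0 CPM per kilobase in treated knockout and 10.3 CPM per kilobase in saline knockout libraries, shows the widest gap among the genes drawn.

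Poly(I:C) changed 13 of the 40 tested vascular genes in the knockout cerebellum, 8 of them higher and 5 lower than after saline (quasi-likelihood test of edgeR, with p adjusted by Benjamini-Hochberg over all tested genes and called under 0.05). That is 32.5% of the members, where 2.87% of all tested genes were called, 1.81% higher and 1.06% lower. The genes that rose were Ly6a, Ly6c1 and Ly6e, the adhesion genes Icam1, Vcam1 and Selp, the lipid transporter Mfsd2a and Angpt2. Of these, Selp passed the filter on low counts only through the treated libraries. The genes that fell were the angiopoietin receptor genes Tek and Tie1, the surface protein gene Itm2a, Vwf and Edn3. Treated and saline libraries did not overlap in 19 of the 40 genes (47.5%), with the treated ones higher in 8 and lower in 11, where 9.75% of all tested genes were so separated, 4.93% higher and 4.82% lower. The median log2 fold change over the 40 was -0.08, against -0.0017 over all tested genes, and moved to -0.21 without saline knockout library 4 and -0.18 without the 3 libraries rich in Ttr. In bulk tissue, fewer cells of a type and less RNA per cell cannot be told apart.

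Against FVB the treated knockout libraries differed in 13 of the 40 genes as well, again 8 higher and 5 lower, where 7.05% of all tested genes were called, 3.81% higher and 3.24% lower. Libraries of these groups did not overlap in 14 of the 40 genes, 8 higher and 6 lower, where 14.2% of all tested genes were so separated, 6.74% higher and 7.46% lower. The median log2 fold change was -0.04, against 0.001 over all tested genes. The 2 comparisons share the treated libraries, so their values are given side by side and not as support for each other. Saline knockout and FVB libraries differed in 0 of the 40 genes by the same test, where 1.53% of all tested genes were called. DESeq2 called 1. By edgeR 4 of the 40 were at an unadjusted p under 0.05, where 12% of all tested genes were. The median log2 difference between these groups was 0.07, against 0.0033 over all tested genes, and 0.0021 without FVB library 1.

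**Figure D2:**
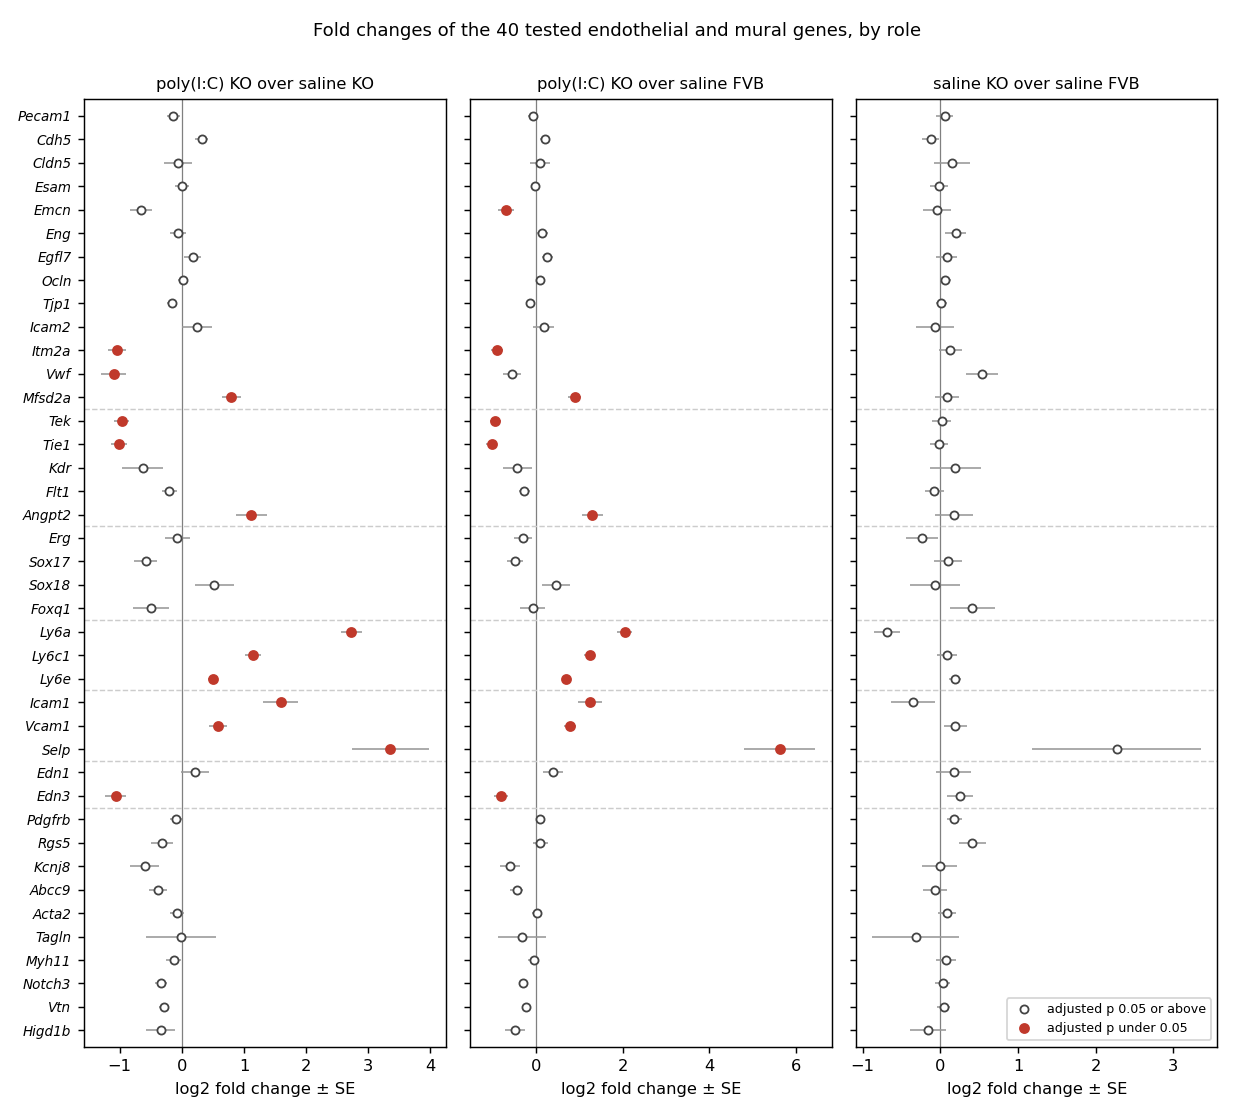
Log2 fold changes of the tested vascular genes by role, for treated over saline knockout libraries, treated knockout over FVB libraries and saline knockout over FVB libraries; bars are standard errors from edgeR's fit, filled points are genes with an adjusted p under 0.05, and the panels have their own horizontal scales (the fitted fold of Selp, from few counts, depends on the prior count). Calls lie on both sides of 0 in the comparisons with treated libraries, and the mural genes have none.

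The Ly6 genes encode small surface proteins held by a lipid anchor. Ly6a, also known as Sca-1, is induced by interferons, and Ly6c1 marks brain endothelium in the mouse. Ly6a was at 88.8, 92.1, 90.7 and 56.2 CPM in treated knockout libraries 1 to 4, against 14.96, 12.8, 12.8 and 9.04 CPM in saline knockout and 20.4, 19.7, 20.9 and 18.6 CPM in FVB libraries. All treated libraries lay above all others, and the fourth was the lowest of them. The treated mean of 82.0 ± 17.2 CPM compares with 12.4 ± 2.47 CPM after saline and 19.9 ± 1.01 CPM in FVB (SD, n = 4 each). This is a log2 fold change of 2.73 (SE 0.172, edgeR adjusted p = 4.99e-07) over saline knockout and of 2.04 (SE 0.166, adjusted p = 5.19e-06) over FVB.

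Ly6a was also the gene closest to a call between saline knockout and FVB. Every saline knockout library was below every FVB library, and no other tested member separated these groups in either direction, where 7.02% of all tested genes did so, 3.45% with the saline knockout lower. The log2 difference was -0.69 (SE 0.168) with an edgeR adjusted p of 0.0688, which misses the threshold. It passed in 5 of 22 alternative fits, with DESeq2 among them, over a range of adjusted p from 6.84e-04 to 0.185.

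Ly6c1 had 106, 93.0, 109 and 84.8 CPM in treated knockout libraries, against 57.2, 41.7, 41.9 and 37.0 CPM in saline knockout and 42.2, 35.1, 43.9 and 45.8 CPM in FVB libraries. The treated libraries were all higher than the rest, with a log2 fold change of 1.15 (SE 0.127, edgeR adjusted p = 5.77e-05) over saline and 1.24 (SE 0.127, adjusted p = 2.05e-05) over FVB. The near-identical copy Ly6c2, expressed by monocytes, took between 0.0% and 3.65% of the counts of the 2 genes in any library. The sources used here do not say how reads matching both were counted. Ly6e, which is expressed by many cell types, moved less. It had 146, 161, 167 and 152 CPM in treated knockout, against 103, 123, 107 and 111 CPM in saline knockout and 86.6, 114, 95.1 and 93.2 CPM in FVB libraries. The treated libraries lay above all others, and it rose by 0.50 on the log2 scale over saline (SE 0.0796, edgeR adjusted p = 7.66e-04) and by 0.69 over FVB (SE 0.0799, adjusted p = 1.36e-05).

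For comparison, 10 interferon-induced genes such as Ifit1, Isg15 and Rsad2 summed to 388 to 507 CPM in treated knockout libraries, against 39.6 to 58.8 CPM in saline knockout and 30.4 to 44.6 CPM in FVB libraries. All 10 rose in the treated libraries in both comparisons. Between saline knockout and FVB edgeR called 0, with 5 at an unadjusted p under 0.05, where 12% of all tested genes were. DESeq2 called Ifi44 there. Ifi44 rose by 4.79 on the log2 scale over saline (adjusted p = 9.76e-07).

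The 4 leukocyte adhesion genes were all higher after poly(I:C). E-selectin (Sele) and P-selectin (Selp) let leukocytes roll along the vessel wall, and ICAM-1 and VCAM-1 hold them by their integrins. Promoter windows of the selectins, of Icam1 and of Ly6c1 are shown because, among the genes higher with treatment, these have a RefSeq window with a match to a motif searched here. Mfsd2a has a window without a match, and Vcam1, Ly6a, Ly6e and Angpt2 are named only. The windows run from 250 bases before to 50 bases after the annotated start, 5′ to 3′ along the gene, in the RefSeq table's build GRCm38.p6, and capitals mark matches on either strand to the gamma-activated site (TTC and GAA with any 3 bases between them) or to NF-kB letters (GGGA and CC with any 4 bases between them). The windows lie at chr1:164047984-164048283 on the plus strand for Sele, chr1:164115014-164115313 on the plus strand for Selp, chr9:21015690-21015989 on the plus strand for Icam1 and chr15:75048788-75049087 on the minus strand for Ly6c1.
Sele: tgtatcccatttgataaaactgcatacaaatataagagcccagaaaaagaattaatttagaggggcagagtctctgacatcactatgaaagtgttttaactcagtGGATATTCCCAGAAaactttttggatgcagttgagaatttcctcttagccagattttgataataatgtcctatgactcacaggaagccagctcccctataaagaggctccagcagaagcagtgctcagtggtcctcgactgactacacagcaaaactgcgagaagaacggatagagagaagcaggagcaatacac
Selp: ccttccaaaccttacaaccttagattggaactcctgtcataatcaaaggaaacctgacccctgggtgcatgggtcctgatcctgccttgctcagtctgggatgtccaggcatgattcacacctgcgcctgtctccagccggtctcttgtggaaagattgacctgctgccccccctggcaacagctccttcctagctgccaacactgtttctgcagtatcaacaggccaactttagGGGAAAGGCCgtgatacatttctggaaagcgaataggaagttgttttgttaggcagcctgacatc
Icam1: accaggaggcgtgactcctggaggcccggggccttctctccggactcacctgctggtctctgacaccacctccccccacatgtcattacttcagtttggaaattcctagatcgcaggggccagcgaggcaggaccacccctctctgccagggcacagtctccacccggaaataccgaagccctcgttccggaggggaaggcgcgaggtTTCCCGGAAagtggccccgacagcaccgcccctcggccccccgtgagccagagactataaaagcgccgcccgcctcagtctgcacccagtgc
Ly6c1: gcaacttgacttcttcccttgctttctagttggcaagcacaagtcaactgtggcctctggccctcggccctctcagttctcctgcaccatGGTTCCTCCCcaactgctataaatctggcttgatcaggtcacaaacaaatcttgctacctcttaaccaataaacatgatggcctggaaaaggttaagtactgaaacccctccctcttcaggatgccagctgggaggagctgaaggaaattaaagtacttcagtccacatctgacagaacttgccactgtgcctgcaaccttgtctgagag
The capitals in Sele cover both motifs, which overlap: the NF-kB letters, read on the opposite strand, at bases 106 to 115 and the gamma-activated site at bases 111 to 119 of the window. Selp has NF-kB letters at bases 236 to 245 and Icam1 a gamma-activated site at bases 209 to 217. Ly6c1 has NF-kB letters on the opposite strand at bases 91 to 100.

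These matches describe letters and not bound sites. Windows were found for 25 of the 41 genes, and 31 windows in all. The NF-kB letters occurred in 12 of the 31 windows, of 11 genes, and in 20.7% of all 32851 windows in the table. The gamma-activated site occurred in 4 of the 31 windows, of Icam1, Notch3, Sele and Vtn, and in 8.3% of all windows. The core of the interferon-stimulated response element (GAAA and GAAA with any 2 bases between them) occurred in 2 of the 31 windows, of Edn1 and Vtn, and in 3.44% of all windows. The CArG box, the motif of smooth muscle genes, occurred in none of the member windows and in 1.63% of all.

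Sele was counted almost only in treated libraries. It had 1.59, 1.07, 0.781 and 0.0868 CPM in treated knockout libraries, was at 0 in all 4 saline knockout libraries, and reached 0.0546 CPM in FVB library 4 while the other FVB libraries were at 0. The fourth treated library was thus close to that FVB value. In all, 175 counts in treated knockout libraries stand against 0 in saline knockout and 2 in FVB libraries. With a floor of 3 counts over the pooled saline group (0.0179 CPM), pooled Sele was at least 51.9-fold higher in treated than in saline knockout libraries. That floor covers counting error only and is no bound for single libraries. Treated library 1 held 90 of the 175 counts and treated library 4 held 4. Over FVB the ratio of Sele by pooled counts was 73.6, with an exact 95% interval from 20.1 to 612 that covers counting error only. The filter on low counts kept Sele out of the edgeR fit. In the 11 of 22 alternatives that tested it, the adjusted p lay between 4.68e-05 and 0.0429 over saline and between 9.34e-05 and 0.0478 over FVB. Where such a fit used the filter, Sele passed only through the treated libraries, so these values are description only.

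Selp had 0.656, 0.750, 1.18 and 0.434 CPM in treated knockout libraries, against 0.0261, 0, 0.154 and 0.0983 CPM in saline knockout libraries. In FVB it was counted in library 3 alone, at 0.0406 CPM. The treated libraries were separate from all others, with 139 counts against 12 in saline knockout and 2 in FVB libraries. The ratio by counts was 10.3 over saline (exact 95% interval 5.71 to 20.4) and 58.4 over FVB (15.9 to 487). edgeR gave an adjusted p of 0.00362 over saline and of 1.74e-04 over FVB. The call over saline was lost without the 3 libraries rich in Ttr (adjusted p = 0.212). Selp passed the filter on low counts only through the treated libraries, with 20 to 47 counts each against at most 6 in any other. These p-values are therefore given as description only. Platelets also carry Selp and Vwf. The platelet gene Pf4 had 0.325 to 0.857 CPM in treated knockout, 0.570 to 0.923 CPM in saline knockout and 0.527 to 1.34 CPM in FVB libraries, a marker chosen after the values were seen. In the same order, the platelet gene Itga2b had 1.01 to 1.51, 0.511 to 1.64 and 0.995 to 1.22 CPM. Ppbp had 0.0504 to 0.278, 0.118 to 0.554 and 0.328 to 0.540 CPM, and Gp9 0 to 0.257, 0.0504 to 0.410 and 0 to 0.318 CPM. Treated and saline ranges overlapped for each. The part of platelets in the Selp and Vwf results was not tested.

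Icam1 had 6.38, 6.21, 7.93 and 4.62 CPM in treated knockout libraries, against 2.09, 1.71, 2.38 and 2.16 CPM in saline knockout and 1.31, 4.21, 1.97 and 3.14 CPM in FVB libraries. The treated libraries lay above all others, although FVB library 2 came near treated library 4. It rose by 1.59 on the log2 scale over saline (SE 0.278, edgeR adjusted p = 0.00295) and by 1.24 over FVB (SE 0.275, adjusted p = 0.0106). Both calls were lost without the 3 libraries rich in Ttr, with log2 fold changes of 1.32 (adjusted p = 0.164) and 1.06 (adjusted p = 0.15).

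Vcam1, which astrocytes and the choroid plexus may also express, had 38.3, 41.5, 47.2 and 31.1 CPM in treated knockout libraries. Saline knockout libraries had 23.1, 33.2, 25.5 and 23.7 CPM and FVB libraries 23.0, 27.0, 18.5 and 23.9 CPM. Treated library 4 was below saline library 2, so these groups overlapped. Vcam1 rose by 0.58 over saline (SE 0.144, edgeR adjusted p = 0.044), a call lost in 11 of 22 alternatives, with adjusted p between 0.00217 and 0.127, and at 0.113 without the 3 libraries rich in Ttr. Over FVB it rose by 0.78 (SE 0.145, adjusted p = 0.00438), and that call held in each of the 22 alternatives.

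**Figure D3:**
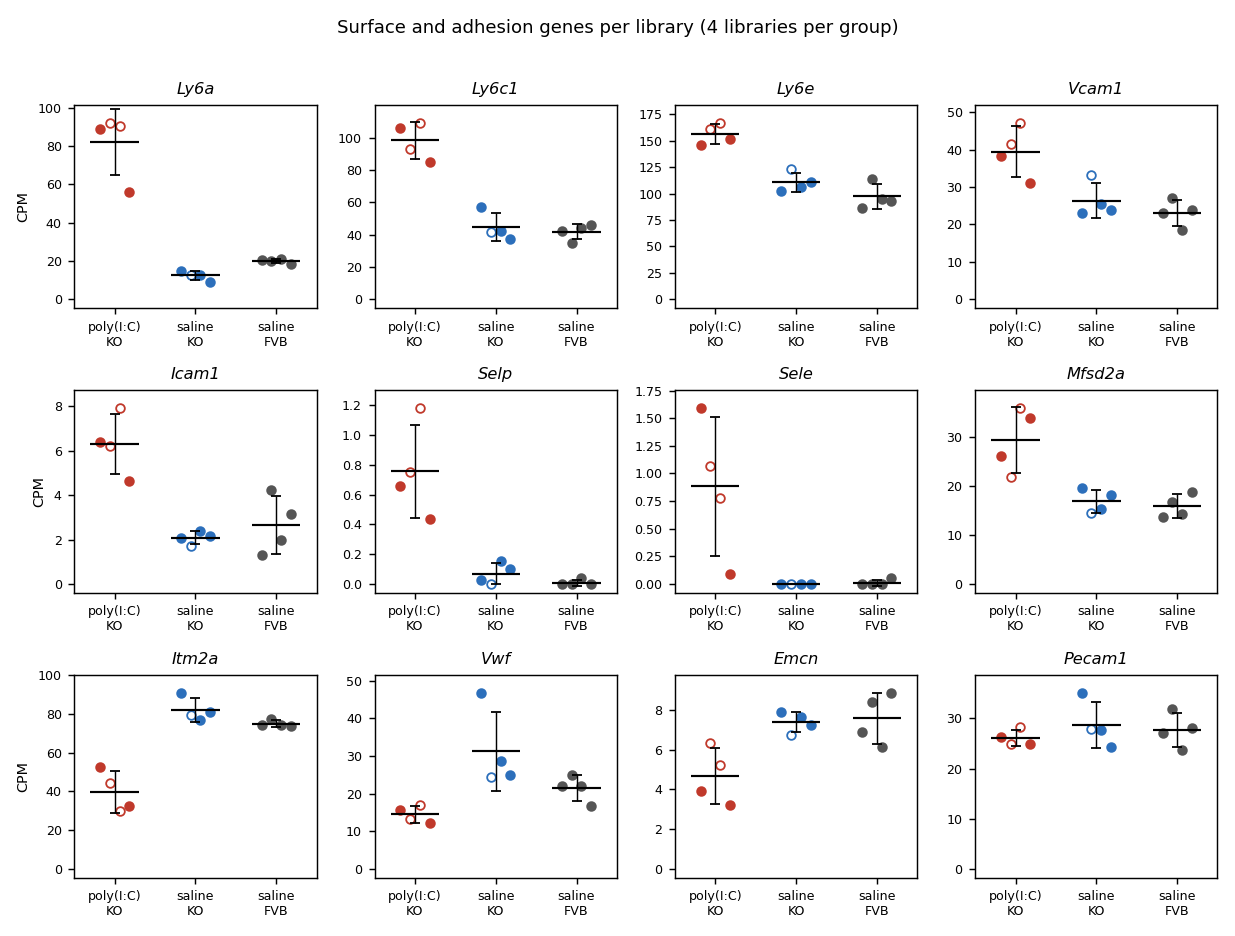
Level in CPM of the Ly6 genes, the adhesion genes, Mfsd2a, Itm2a, Vwf, Emcn and Pecam1 in each library, by group, with treated knockout left, saline knockout next and FVB right; horizontal marks are means and bars SDs over 4 libraries, and open circles are the 3 libraries rich in Ttr. The treated libraries lie apart from the others for Ly6a, Ly6c1, Ly6e, Icam1 and Selp, and treated library 4 is lowest of its group for Sele at 0.0868 CPM.

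Leukocyte markers were given beside these genes because blood cells can share them. Of 10 genes for the integrins and glycoproteins through which leukocytes bind these molecules, 0 were called over saline by edgeR or DESeq2. By edgeR 2 were at an unadjusted p under 0.05, where 15.5% of all tested genes were. Itgal, picked after its values were seen, was higher in both knockout groups than in FVB, by 1.77 on the log2 scale in treated (adjusted p = 0.016) and by 1.84 in saline knockout libraries (adjusted p = 0.0374). Markers of neutrophils and monocytes summed to 6.34 to 17.5 CPM in treated knockout and 5.97 to 34.7 CPM in saline knockout libraries, against 1.42 to 2.93 CPM in FVB libraries. Of the 9 tested, 4 had a positive and 5 a negative log2 fold change over saline, with a median of -1.37. At an unadjusted p under 0.05 were 6 of them, where 15.5% of all tested genes were. edgeR called Plac8 alone, which rose by 2.81 over saline (adjusted p = 8.90e-04), and DESeq2 called Plac8 and, lower in treated libraries, S100a8 (-1.78 by edgeR, adjusted p = 0.147) and Ltf (-2.63, adjusted p = 0.108). Plac8 and Ly6c2 were called higher in treated knockout than in FVB. S100a8, S100a9 and Ltf were called higher in saline knockout than in FVB by edgeR, calls lost in 4, 12 and 9 of 22 alternatives. Of 9 markers of T and B cells, 3 could be tested, 0 were called by edgeR or DESeq2 or lay under an unadjusted p of 0.05, and their sum stayed between 1.74 and 3.76 CPM in the 12 libraries. The part of blood cells in the adhesion results was not tested.

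Most genes of endothelial identity and junctions were not called, while Itm2a, Vwf and Mfsd2a were. Pecam1, the common endothelial marker CD31, averaged 26.1 CPM in treated knockout, 28.8 CPM in saline knockout and 27.7 CPM in FVB libraries. The tight junction genes Cldn5, Ocln and Tjp1 had log2 fold changes over saline of -0.06, 0.02 and -0.16, with the lowest edgeR adjusted p at 0.305 for Tjp1. Esam, a junctional adhesion molecule, had a log2 fold change of -0.004 (adjusted p = 0.993). Cdh5, the cadherin of endothelial adherens junctions, had 25.6, 21.2, 25.3 and 22.6 CPM in treated knockout libraries, against 21.2, 17.2, 18.8 and 18.9 CPM in saline knockout libraries. Its treated libraries were all higher than the saline ones, by little in library 2, and its log2 fold change of 0.32 (SE 0.105) had an adjusted p of 0.124. Eng, Egfl7 and Icam2 were also not called.

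Itm2a, a membrane protein enriched in brain vessels, had 52.7, 44.2, 29.7 and 32.4 CPM in treated knockout libraries, against 91.0, 79.5, 76.6 and 81.1 CPM in saline knockout and 74.2, 77.5, 74.3 and 73.8 CPM in FVB libraries. All treated libraries were lower than the rest. It fell by 1.04 on the log2 scale relative to saline (SE 0.145, edgeR adjusted p = 9.55e-04) and by 0.91 relative to FVB (SE 0.145, adjusted p = 0.0019).

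Vwf, the clotting factor carrier stored with P-selectin in endothelial granules, had 15.6, 13.4, 17.1 and 12.1 CPM in treated knockout libraries. In saline knockout libraries it had 46.8, 24.4, 28.6 and 24.96 CPM, of which the first stands well above the others, and in FVB libraries 21.9, 24.96, 22.1 and 16.8 CPM. Treated and saline libraries did not overlap, and FVB library 4 lay just below treated library 3. The log2 fold change was -1.10 over saline (SE 0.208, edgeR adjusted p = 0.0134) and -0.56 over FVB (adjusted p = 0.139), which is no call. The call over saline was lost without treated library 2 and without the 3 libraries rich in Ttr (log2 fold change -1.26, adjusted p = 0.0849).

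Emcn, the sialomucin endomucin found on veins and capillaries, had 3.92, 6.34, 5.24 and 3.21 CPM in treated knockout libraries, against 7.90, 6.75, 7.64 and 7.23 CPM in saline knockout and 6.88, 8.43, 6.12 and 8.88 CPM in FVB libraries. It was below the saline level in every treated library but missed the threshold (log2 fold change -0.66, edgeR adjusted p = 0.0582). Relative to FVB it fell by 0.70 (SE 0.182, adjusted p = 0.0254). Without the 3 libraries rich in Ttr it was called in both comparisons, at -1.09 (adjusted p = 0.00673) and -1.08 (adjusted p = 0.00293). The call over FVB was lost without treated library 1 or 4, or FVB library 2 or 4.

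Mfsd2a carries lysophosphatidylcholine with omega-3 fatty acids into the brain and restrains transcytosis in barrier endothelium. It had 26.0, 21.7, 35.9 and 33.7 CPM in treated knockout libraries, against 19.5, 14.4, 15.4 and 18.1 CPM in saline knockout and 13.6, 16.8, 14.3 and 18.8 CPM in FVB libraries. The treated libraries were all higher. It rose by 0.80 on the log2 scale over saline (SE 0.154, edgeR adjusted p = 0.0084) and by 0.89 over FVB (SE 0.155, adjusted p = 0.00228).

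The angiopoietin receptors and their ligand Angpt2 moved in opposite directions. Tek, which encodes TIE2, had 12.0, 10.6, 7.61 and 10.1 CPM in treated knockout libraries, against 23.5, 19.9, 17.6 and 18.4 CPM in saline knockout and 18.3, 18.9, 20.4 and 20.6 CPM in FVB libraries. Its co-receptor gene Tie1 had 5.00, 5.98, 4.61 and 4.95 CPM in treated knockout libraries, against 10.7, 10.7, 9.97 and 10.1 CPM in saline knockout and 10.7, 12.3, 9.00 and 9.89 CPM in FVB libraries. For both, every treated library lay below every other library.

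Tek fell by 0.97 on the log2 scale relative to saline (SE 0.124, edgeR adjusted p = 5.42e-05) and by 0.95 relative to FVB (SE 0.124, adjusted p = 5.23e-05). Tie1 fell by 1.01 relative to saline (SE 0.124, adjusted p = 3.36e-05) and by 1.03 relative to FVB (SE 0.124, adjusted p = 1.93e-05). All of these calls held in each of the 22 alternatives.

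Angpt2 had 8.20, 6.40, 14.4 and 6.99 CPM in treated knockout libraries, against 4.72, 4.13, 3.00 and 4.68 CPM in saline knockout and 3.70, 4.56, 2.62 and 3.82 CPM in FVB libraries. The treated libraries were all higher, the third by most, and that library is one of the 3 rich in Ttr. It rose by 1.12 on the log2 scale over saline (SE 0.244, edgeR adjusted p = 0.0184) and by 1.29 over FVB (SE 0.247, adjusted p = 0.00395). The call over saline was lost in 4 of 22 alternatives, namely without saline library 2 or 3, without the 3 libraries rich in Ttr (0.88, adjusted p = 0.138) and with replicate number as a block. Angpt2 lies within Mcph1 on the opposite strand, and Mcph1 itself had a log2 fold change of 0.07 (adjusted p = 0.825).

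Other genes of the same axis were read from a list of 29 genes of the VEGF, angiopoietin, Notch and TGF-beta pathways of vessels, 28 of them tested. By edgeR 1 rose and 1 fell over saline, and 1 rose and 2 fell over FVB. Calls were thus 7.14% over saline and 10.7% over FVB, where 2.87% and 7.05% of all tested genes were called. Ptprb, the phosphatase VE-PTP that removes phosphate from TIE2, had 28.5, 28.7, 22.7 and 25.1 CPM in treated knockout libraries, against 59.6, 55.1, 50.4 and 44.0 CPM in saline knockout and 50.7, 53.4, 48.3 and 52.8 CPM in FVB libraries. It fell by 0.99 relative to saline (SE 0.0925, edgeR adjusted p = 8.80e-07) and by 0.97 relative to FVB (adjusted p = 1.14e-06), with no overlap. Robo4, a receptor that stabilises endothelium, rose by 0.65 over saline (SE 0.134, adjusted p = 0.00919), a call lost without the 3 libraries rich in Ttr (adjusted p = 0.139), and by 0.91 over FVB (adjusted p = 2.20e-04). Plxnd1, a semaphorin receptor gene picked after its values were seen, was lower than FVB in treated knockout libraries, by -0.43 (adjusted p = 0.0196), and in saline knockout libraries, by -0.44 (adjusted p = 0.0441).

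Angpt1, the agonist ligand of TIE2, was picked from this list after its values were seen. It averaged 12.8 ± 3.06 CPM in treated knockout, 13.0 ± 1.86 CPM in saline knockout and 11.4 ± 1.49 CPM in FVB libraries (SD, n = 4 each; edgeR adjusted p = 0.966 over saline). The VEGF receptor gene Kdr varied widely, with 16.7, 19.3, 13.2 and 10.1 CPM in treated knockout, 30.7, 21.9, 18.8 and 20.5 CPM in saline knockout and 10.1, 30.9, 17.3 and 22.1 CPM in FVB libraries. Its FVB libraries alone spanned nearly the whole range, and its log2 fold change over saline of -0.63 (SE 0.33) was not called (adjusted p = 0.414). Flt1, the VEGF receptor that mainly binds the ligand away, had -0.20 (adjusted p = 0.478).

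**Figure D4:**
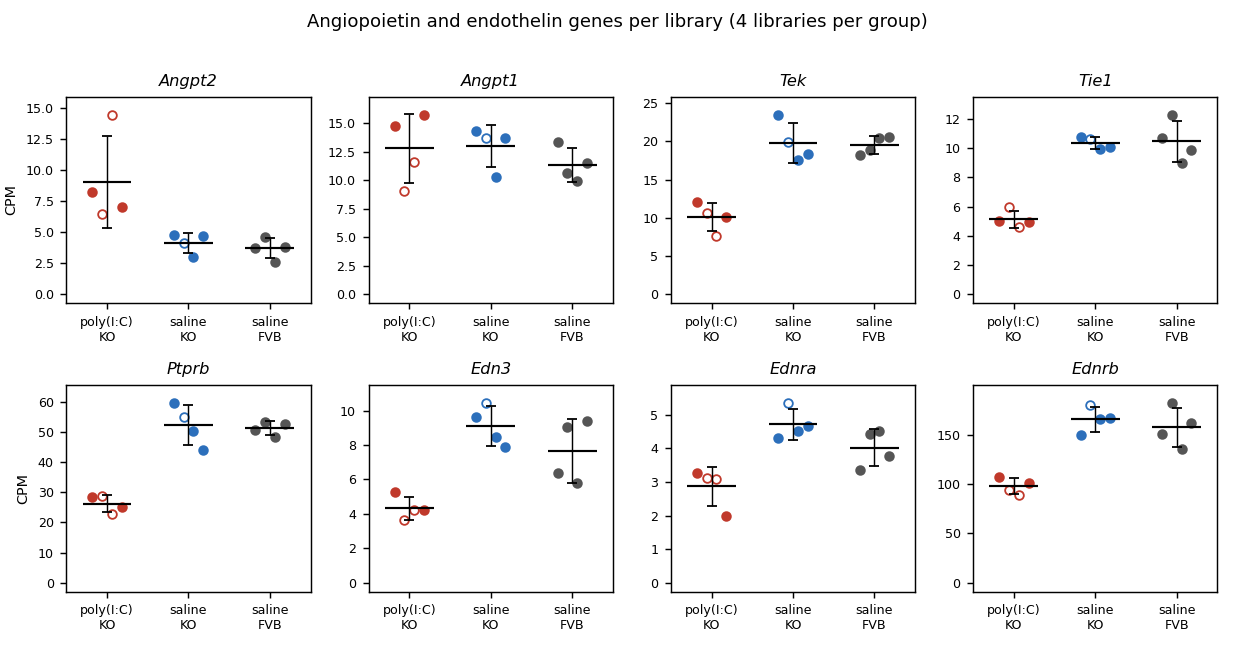
Level in CPM of Angpt2, Angpt1, Tek, Tie1, Ptprb, Edn3, Ednra and Ednrb in each library, by group, with treated knockout left, saline knockout next and FVB right; horizontal marks are means, bars SDs over 4 libraries, and open circles the 3 libraries rich in Ttr. Tek, Tie1, Ptprb, Edn3, Ednra and Ednrb are lower in every treated library than in every saline or FVB library, Angpt2 is higher, and Angpt1 overlaps.

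None of the 4 endothelial transcription factor genes was called by edgeR in any comparison, with at most 1 at an unadjusted p under 0.05. Sox17, of arterial endothelium, had 3.92, 2.87, 3.10 and 3.32 CPM in treated knockout, against 4.67, 4.23, 4.10 and 6.76 CPM in saline knockout libraries. The groups did not overlap, and its log2 fold change of -0.58 had an adjusted p of 0.107 by edgeR and was called by DESeq2 alone. Sox18 had 6.61, 5.68, 7.35 and 4.47 CPM in treated knockout, against 3.44, 2.67, 3.05 and 7.51 CPM in saline knockout libraries, where the fourth library stood above all treated ones. Its log2 fold change of 0.52 was not called (adjusted p = 0.475), but was without that library (adjusted p = 0.0259). Erg, which keeps endothelial identity, and Foxq1, a factor enriched in brain endothelium, had log2 fold changes of -0.07 and -0.50 without a call.

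Endothelins are peptides that act on vessel tone and on glia. Edn3 had 5.26, 3.66, 4.21 and 4.21 CPM in treated knockout libraries, against 9.64, 10.4, 8.46 and 7.88 CPM in saline knockout and 6.37, 9.06, 5.80 and 9.42 CPM in FVB libraries. All treated libraries were lower than the others. It fell by 1.07 on the log2 scale relative to saline (SE 0.169, edgeR adjusted p = 6.80e-04) and by 0.82 relative to FVB (SE 0.17, adjusted p = 0.00552). Without the 3 libraries rich in Ttr the calls were lost, at -0.87 (adjusted p = 0.0916) and -0.69 (adjusted p = 0.114). Edn1, the endothelin of endothelial cells, averaged 3.39 CPM in treated knockout, 2.92 CPM in saline knockout and 2.61 CPM in FVB libraries and was not called (log2 fold change 0.21 over saline, adjusted p = 0.72).

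Of 5 genes for endothelin receptors and processing enzymes, 4 were tested and both receptor genes fell relative to saline. Ednrb, the receptor of astrocytes and endothelium that binds all endothelins, had 107, 94.2, 89.1 and 101 CPM in treated knockout libraries, against 149, 180, 166 and 166 CPM in saline knockout and 150, 182, 135 and 162 CPM in FVB libraries. It fell by 0.75 relative to saline (SE 0.0848, edgeR adjusted p = 1.40e-05) and by 0.68 relative to FVB (adjusted p = 3.23e-05), with no overlap. Ednra, the receptor of mural cells, fell by 0.71 relative to saline (SE 0.175, adjusted p = 0.0317), a call lost in 7 of 22 alternatives, and was not called relative to FVB (-0.49, adjusted p = 0.107). Astrocytes carry much of brain Ednrb, and of their 8 markers edgeR called Aqp4 alone over saline, at -0.36 (adjusted p = 0.0368), a call lost in 8 of 22 alternatives, while DESeq2 called Aqp4 and Agt. Over FVB edgeR called Aqp4 lower and Agt and Itih3 higher in treated libraries, and Itih3 higher in saline knockout libraries. The part of astrocytes in the Ednrb result was not tested.

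None of the 10 mural genes was called by edgeR in any comparison, although all 10 had a negative log2 fold change over saline. These ran from -0.60 for Kcnj8 to -0.01 for Tagln, with a median of -0.30 and 4 genes at an unadjusted p under 0.05, where 15.5% of all tested genes were under that level, and DESeq2 called Notch3 and Vtn. Relative to FVB 3 were positive and 7 negative, with a median of -0.28 and 5 genes at an unadjusted p under 0.05, where 21.3% of all tested genes were under that level, and DESeq2 called Abcc9 and Notch3. Between saline knockout and FVB 1 was under that level, where 12% of all tested genes were, and DESeq2 called 0. Notch3, the Notch receptor of mural cells, had 17.3, 16.3, 15.5 and 16.5 CPM in treated knockout, against 21.4, 21.0, 23.1 and 17.5 CPM in saline knockout and 17.7, 21.6, 19.7 and 22.3 CPM in FVB libraries. The treated libraries were just below all others, at -0.34 over saline (SE 0.0982, adjusted p = 0.0704) and -0.31 over FVB (adjusted p = 0.0646).

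Vtn, which encodes vitronectin and is made by brain pericytes, had 87.5, 74.6, 75.9 and 68.6 CPM in treated knockout, against 98.8, 93.5, 88.4 and 92.9 CPM in saline knockout and 93.7, 103, 86.1 and 80.0 CPM in FVB libraries. Treated and saline libraries were narrowly separate, and the log2 fold change of -0.28 (SE 0.0811) had an adjusted p of 0.0669 by edgeR and passed in 5 of 22 alternatives, DESeq2 included. Kcnj8 and Abcc9, which form the potassium channel of pericytes, had -0.60 (adjusted p = 0.192) and -0.38 (adjusted p = 0.211). Pdgfrb, the receptor that recruits pericytes, had -0.09 (adjusted p = 0.714), and the smooth muscle genes Acta2 and Myh11 had -0.08 and -0.13. Rgs5 averaged 103 CPM in treated knockout, 128 CPM in saline knockout and 96.4 CPM in FVB libraries, with no call.

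Further mural genes were read from a list of 22, all tested. edgeR called 1 over saline, where 2.87% of all tested genes were called, and 2 over FVB, where 7.05% were. Over saline 9 were at an unadjusted p under 0.05, where 15.5% of all tested genes were. DESeq2 called Atp13a5, Anpep, Myl9 and Art3 over saline and 2 over FVB. Atp13a5, a transporter gene of brain pericytes, had 11.2, 8.63, 9.19 and 8.01 CPM in treated knockout, against 20.4, 16.7, 14.5 and 13.4 CPM in saline knockout and 16.2, 15.02, 15.5 and 12.6 CPM in FVB libraries. It fell by 0.81 relative to saline (SE 0.135, edgeR adjusted p = 0.00112) and by 0.68 relative to FVB (adjusted p = 0.00395), with no overlap. Both calls were lost without the 3 libraries rich in Ttr (adjusted p = 0.101 and 0.0968). Mcam fell relative to FVB, by 0.59 (adjusted p = 4.96e-04), and was not called over saline (adjusted p = 0.147).

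Other vascular lists add genes whose products are known from inflamed or specialised endothelium. Of 24 genes of the inflammatory response of brain endothelium, many of which other cells also express, 22 were tested, and by edgeR 11 rose over saline and 0 fell, where 1.81% of all tested genes rose. Likewise 11 rose and 0 fell over FVB, where 3.81% of all tested genes rose. Ptgs2, the prostaglandin-forming cyclooxygenase-2, had 5.97, 5.42, 7.30 and 5.21 CPM in treated knockout, against 1.80, 0.857, 1.59 and 1.83 CPM in saline knockout and 0.455, 1.19, 0.750 and 0.929 CPM in FVB libraries. It rose by 1.97 over saline (SE 0.256, edgeR adjusted p = 6.42e-05) and by 2.84 over FVB. The cytokine receptor gene Osmr rose by 1.24 over saline (adjusted p = 5.30e-05) and Il6ra by 0.95 (adjusted p = 7.65e-04). The chemokine gene Ccl2, with at most 2.83 CPM in any library, rose by 4.30 (adjusted p = 6.35e-04). Saline knockout libraries had only 0.0786 to 0.104 CPM of Ccl2, so its fold change and p-value rest on few counts there. They are given as description only, although Ccl2 is among the 11 that rose. Between saline knockout and FVB 0 of the 22 were called by edgeR and 3 by DESeq2. By edgeR 3 were at an unadjusted p under 0.05, where 12% of all tested genes were.

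Of 10 anticoagulant and fibrinolytic genes, Tfpi alone was called over saline, where it fell by 0.66 (edgeR adjusted p = 0.0379), a call lost in 9 of 22 alternatives, and alone over FVB, where it fell by 0.64 (adjusted p = 0.0253), a call lost in 8. Among 15 partners of the junctions, Lsr, of tricellular junctions, rose by 0.90 over saline (adjusted p = 0.0185) and by 1.06 over FVB (adjusted p = 0.00337), both lost without the 3 libraries rich in Ttr. Ctnnb1, which encodes beta-catenin, fell by 0.21 over FVB (adjusted p = 0.0307), a call lost in 10 of 22 alternatives. Of 16 genes of the Wnt and barrier programme, Apcdd1 fell over saline by 0.40 (adjusted p = 0.0246), a call lost in 7 of 22 alternatives. Over FVB 0 were called by edgeR and 1 by DESeq2. By edgeR 6 were at an unadjusted p under 0.05 there, where 21.3% of all tested genes were. For these lists too, edgeR called 2.87% of all tested genes over saline and 7.05% over FVB.

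Of 9 tested markers of arteries, veins, lymphatic and fenestrated vessels, edgeR called 1 over saline and 3 over FVB. That is 11.1% and 33.3%, where 2.87% and 7.05% of all tested genes were called. Gkn3, an arterial gene of mouse brain, had the lowest p over saline. It had 0.425, 0.643, 0.101 and 0.521 CPM in treated knockout libraries, against 2.84, 5.29, 6.46 and 5.42 CPM in saline knockout and 3.55, 4.88, 2.19 and 5.25 CPM in FVB libraries. The treated libraries were all lower. It fell by 3.54 on the log2 scale relative to saline (SE 0.417, edgeR adjusted p = 1.28e-04) and by 3.20 relative to FVB (adjusted p = 2.34e-04). The arterial gene Bmx was lower than FVB by -0.85 (adjusted p = 0.0497), a call lost in 19 of 22 alternatives, and the lymphatic gene Lyve1, which macrophages at vessels also express, rose by 1.16 over FVB (adjusted p = 0.0104). Plvap, the gene of fenestrated endothelium, averaged 25.9 CPM in treated knockout, 21.2 CPM in saline knockout and 23.1 CPM in FVB libraries (log2 fold change 0.28 over saline, adjusted p = 0.177). The amino acid transporter gene Slc38a5 was lower in every treated than saline library but was not called (-1.42, adjusted p = 0.132).

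The 40 tested genes varied within groups by a median coefficient of variation of 13.5% in treated knockout, 16.3% in saline knockout and 15.5% in FVB libraries. Single libraries tended to be extreme in many members at once. Treated library 4 was the lowest of its group in 22 of the 40 tested genes, saline library 1 the highest in 21, FVB library 1 the lowest in 24 and FVB library 2 the highest in 21. These counts cover the members only, and whether they are particular to vascular genes was not tested.

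Summed levels of the 13 junction and surface genes ran from 304 to 344 CPM in treated knockout, 359 to 430 CPM in saline knockout and 329 to 400 CPM in FVB libraries. Those of the 10 mural genes ran from 268 to 281 CPM in treated knockout, 298 to 357 CPM in saline knockout and 257 to 310 CPM in FVB libraries. Treated knockout libraries lay below all saline knockout libraries in both sums, while the FVB range overlapped each of the knockout ranges. Such sums follow their most abundant genes. Itm2a averaged 39.7 CPM in treated and 82.1 CPM in saline knockout libraries, Vwf 14.5 and 31.2 CPM, and Mfsd2a 29.3 and 16.9 CPM. Of the 13 genes, 5 had a positive and 8 a negative log2 fold change over saline. Among mural genes, Rgs5 averaged 103 and 128 CPM and Vtn 76.7 and 93.4 CPM, neither called by edgeR.

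Markers of other cells were summed in the same way. Choroid plexus markers, 9 of 10 tested, were called in no comparison by edgeR and summed to 24.0 to 2842 CPM in treated knockout, 36.9 to 4448 CPM in saline knockout and 35.4 to 98.7 CPM in FVB libraries; DESeq2 called Ttr and Folr1 between treated knockout and FVB. Erythrocyte markers summed to 67.8 to 118 CPM in treated knockout, 90.2 to 264 CPM in saline knockout and 39.7 to 618 CPM in FVB libraries, and neither tool called any of the 5. Meningeal markers summed to 133 to 194 CPM in treated knockout, 145 to 191 CPM in saline knockout and 164 to 198 CPM in FVB libraries, and 1 of 10, Slc22a6, fell over saline by 0.68 (edgeR adjusted p = 0.015) and over FVB by 0.80 (adjusted p = 0.00255). Microglial markers summed to 93.1 to 113 CPM in treated knockout, 103 to 128 CPM in saline knockout and 113 to 130 CPM in FVB libraries, and of the 8 edgeR called P2ry12 and Csf1r lower over saline and P2ry12 over FVB. The part of these cell types in the vascular results was not tested beyond the values given without the 3 libraries rich in Ttr. Without these, 7 of the 13 calls over saline remained, Ly6a, Ly6c1, Ly6e, Mfsd2a, Tek, Tie1 and Itm2a, all 13 kept their direction, and Emcn was added, where 1.09% of all tested genes were called. Of the genes named from other lists, Robo4, Lsr, Atp13a5, Ednra, Tfpi, Apcdd1, Aqp4, Slc22a6, P2ry12 and Csf1r lost their calls over saline without them, and Lsr, Atp13a5, Tfpi, Aqp4, Agt, Itih3, Ctnnb1, Bmx, Lyve1, Il6ra and P2ry12 theirs over FVB. S100a9 lost its call between saline knockout and FVB. The calls of Itgal, Plxnd1 and Ly6c2 were not followed without the 3 libraries rich in Ttr. Of the members' calls over FVB 11 of the 13 remained, where 2.81% of all tested genes were called, and 0 members were called by edgeR between saline knockout and FVB, where 1.16% of all tested genes were. With log2 Ttr as a covariate, 14 members were called over saline (2.77% of all tested genes), 13 over FVB (5.35%) and 0 between saline knockout and FVB (1.49%).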

How the data were processed

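Bulk RNA from 12 cerebellar samples was sequenced as 1 library each. TRIzol extraction, DNase I treatment, a check of RNA integrity and TruSeq library preparation are described per the labels' protocols. The authors deposited whole-number read counts per Ensembl gene, and the submitters' processing notes name Trim Galore, HISAT2, featureCounts and, as build, GRCm39. Versions, strand setting, annotation release and treatment of multi-mapping reads: not given in the sources used here. Counts of near-identical and overlapping genes are therefore uncertain, and 14 of the 41 members overlap another gene in GENCODE M21, in 5 cases a tested one.

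Groups were taken from the labels. Symbols and union exon lengths came from GENCODE M21 (GRCm38) by Ensembl identifier, and promoters from a RefSeq table of GRCm38.p6. Counts were filtered with filterByExpr (a minimum of 10 counts), scaled by the trimmed mean of M values and fitted with edgeR 4.0.16 in R 4.3.3 as 3 group means over all 12 libraries, with robust quasi-likelihood tests and Benjamini-Hochberg adjustment over 19166 genes at 0.05. The common biological coefficient of variation was 0.152 with 9 residual degrees of freedom. Libraries held 39352860 to 56390207 counts in treated knockout, 38723699 to 50248411 in saline knockout and 35155420 to 48717119 in FVB samples. A count of 0 allows up to 3 counts, or 0.0532 to 0.0853 CPM per library, and such intervals and floors cover counting error only. The procedure was tested on simulated counts, with no outcome given here, so this says nothing of its error rate in these data.

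The members and lists were chosen with earlier results of these data known. All members are accounted for, those called are given per library, and of each further list the number called is given with up to 5 genes of smallest p in the treatment comparison. Alternatives were DESeq2 1.42.0, other scalings and filters, fits of 2 groups, a replicate block, no robust estimation and leaving out each library; leaving out 3 libraries rich in Ttr, and Ttr as a covariate, were added after seeing the data.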

Additional observations from a re-analysis of the deposited data

Results flagged for a closer look

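In each group of 4 libraries the highest and the lowest value of every member were compared with the nearest other value. Over 123 such groups, 14 held a value whose gap exceeded Dixon's 95% critical share of the group's range for 4 samples, where chance alone gives about 1 in 20, or 6.15.

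Several concerned saline knockout library 4. Its Cldn5 was at 35.3 CPM, against 22.1 to 24.4 CPM in the other saline knockout libraries. Its Eng was at 34.0 CPM, against 24.8 to 25.3 CPM, and its Sox18 at 7.51 CPM, against 2.67 to 3.44 CPM. Saline knockout library 1 had 16.1 CPM of Acta2, against 20.9 to 21.5 CPM, and 2.502 CPM of Higd1b, against 2.00 to 2.07 CPM.

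In the treated knockout group, library 4 stood low for Ly6a, at 56.2 CPM against 88.8 to 92.1 CPM in the others, and for Acta2, at 15.5 CPM against 19.5 to 20.3 CPM. Treated library 1 had 0.0709 CPM of Tagln, against 0.239 to 0.257 CPM. These Tagln values rest on few counts.

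Among FVB libraries, library 1 was low for Ocln, at 24.97 CPM against 29.8 to 30.4 CPM, and for Pdgfrb, at 21.4 CPM against 27.3 to 28.3 CPM. Tjp1 was low in library 3, at 78.0 CPM against 84.6 to 85.4 CPM, and Itm2a high in library 2, at 77.5 CPM against 73.8 to 74.3 CPM. Sele was at 0.0546 CPM in FVB library 4 and Selp at 0.0406 CPM in FVB library 3, where the other FVB libraries were at 0. None of these values was left out of the comparisons.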

How the results depend on the processing

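The count of members called between treated and saline knockout libraries was 13. It ran from 12 to 15 when each library was left out in turn, and was 8 without the 3 libraries rich in Ttr, 7 of which were among the 13. Relative to FVB the count of 13 ran from 13 to 16 with a library left out. Between saline knockout and FVB, 0 members were called in the reported fit and 1, Ly6a, with DESeq2, with only the 2 groups compared, with the replicate block and with no robust estimation; leaving out a library gave 0 to 1. No called member changed direction under any alternative tried. Angpt1, not called and near 0 at -0.02 over saline, had a positive log2 fold change without treated library 2 (0.11) and without the 3 libraries rich in Ttr (0.26); with a library left out it ran from -0.14 to 0.11.

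Over all tested genes, 550 were called between treated and saline knockout, 971 with DESeq2, 215 without the 3 libraries rich in Ttr and 347 to 689 with a library left out. Treated knockout against FVB gave 1352 calls, 556 without those 3 libraries and 791 to 1542 with a library left out. Saline knockout against FVB gave 294 calls, 627 with DESeq2, 506 without the filter on low counts and 156 to 300 with a library left out. The cause of these shifts was not tested, beyond the fewer libraries in the fits that leave some out.

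The groups share replicate numbers in their labels, but same-numbered libraries did not deviate together: correlations ran from -0.0987 to 0.145, and 2 of 12 pairs were over 0.1. With the replicate block, 13 members were called over saline, 12 of them shared, 14 over FVB and 1 between saline knockout and FVB. Depth limits Sele, Selp and Tagln, which had few counts in most libraries.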
